A study of Mus musculus with 20 samples.

Results

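The genes described here are 4 adult globin genes (Hba-a1, Hba-a2, Hbb-bs and Hbb-bt), the erythroid haem synthesis gene Alas2 and the neutrophil genes S100a8 and S100a9. They were taken as a list of symbols whose transcripts come from blood cells in a piece of muscle, and all 7 were found among the 55401 genes of the count matrix. The data were RNA sequencing counts of the gastrocnemius muscle, a calf muscle, from 20 C57BL/6 mice of 24 months. HK-treated mice (10) had received Haenkenium (HK), an extract of the plant Salvia haenkei, in their drinking water at 0.5 mg/kg/day from 20 months of age, which gave 4 months of treatment, and untreated mice (10) were given drinking water alone. Each group held 5 males and 5 females, and each mouse was a separate animal. The labels put 8 mice (2 per group and sex) in experimental batch 1 and 12 mice (3 per group and sex) in experimental batch 2. The study's methods trace the 2 batches to separate sequencing experiments, and neither source says which earlier steps they shared. The muscles were frozen in liquid nitrogen. Whether the vessels were flushed before dissection was not given in the sources used here.

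Adult haemoglobin is a tetramer of alpha chains (Hba-a1, Hba-a2) and beta chains (Hbb-bs, Hbb-bt), each of which holds a haem group, and erythroid precursors make the haem through Alas2, the erythroid-specific first enzyme of haem synthesis. Mature red cells have no nucleus but, when young, still carry globin messenger RNA, so a piece of muscle with blood in its vessels brings globin transcripts with it. S100a8 and S100a9 form calprotectin, a calcium- and zinc-binding complex that fills the cytoplasm of neutrophils and is also made by monocytes and by stressed epithelium. In bulk tissue, fewer cells of a type and less RNA per cell cannot be told apart.

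The total count per mouse was 13900180 to 30469644, with a median of 17016047. Batch 1 held the deeper libraries, with a median of 20950853 against 15766065.5 in batch 2. Fibre genes made up the bulk of each library: 12 skeletal muscle genes together reached 176533 to 242233 CPM (counts per 1e6 of library size, scaled with the TMM factors of edgeR). The 4 globins together took 0.0126% ± 0.00884 (SD, n = 20) of all counts. In each of 16 pairs of mice that shared group, sex and batch, the counts were farther apart than sampling noise.

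The alpha pair lies on chromosome 11 (GRCm38), with Hba-a1 at chr11:32283511-32284465 and Hba-a2 at chr11:32296489-32297298, both on the plus strand. The beta pair lies on the minus strand of chromosome 7, with Hbb-bs at chr7:103826534-103828096 and Hbb-bt at chr7:103812524-103813996. Alas2 is at chrX:150547375-150570638 on the plus strand and overlaps Apex2 and Mir3620 on the other strand. S100a8 (chr3:90668978-90670035, plus strand) and S100a9 (chr3:90692632-90695721, minus strand) are neighbours on chromosome 3. All 7 are annotated as protein-coding.

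Within each globin pair the coding sequences are almost the same. Of the 426 coding bases of Hba-a1 and Hba-a2, 425 are identical and 1 differs (C381T, the Hba-a1 base first, position counted from 1 at the first coding base). Of the 441 coding bases of Hbb-bs and Hbb-bt, 440 are identical and 1 differs (C417T, the Hbb-bs base first). The stretches of 49 bases around these differences, all in the third exon of the coding transcript, are shown because they are the only coding letters that tell the copies apart, and the capital marks the differing base. They are from GRCm38, at chr11:32284319-32284367 (plus strand), chr11:32297136-32297184 (plus strand), chr7:103826668-103826716 (minus strand) and chr7:103812659-103812707 (minus strand).
Hba-a1: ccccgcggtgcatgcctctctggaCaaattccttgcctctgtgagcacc
Hba-a2: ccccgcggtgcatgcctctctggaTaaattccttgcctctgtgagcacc
Hbb-bs: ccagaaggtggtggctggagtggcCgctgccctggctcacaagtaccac
Hbb-bt: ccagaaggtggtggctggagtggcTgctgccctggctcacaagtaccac

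Reads came from a run of 75 cycles, and 62.2% of the windows of 75 bases in the Hba-a1 transcript occur in Hba-a2 as well. The share was 81.0% for Hba-a2, 64.3% for Hbb-bs and 56.6% for Hbb-bt, and no window of Alas2, S100a8 or S100a9 occurred in another of the 7 genes. For reads that match both copies the counting rule is not given in these sources, so the split between copies is uncertain, while the sum of each pair is not affected by it unless such reads were dropped.

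The promoters are shown as a description of the genes, and a link between these sequences and the levels across mice was not tested. Each run is the 150 bases upstream of the RefSeq start (GRCm38.p6), read 5′ to 3′ on the strand of the gene, with capitals for GATAA (the core bound by GATA factors), CACCC (the box bound by KLF-type factors), CCAAT and TATAA on either strand, and no 2 matches shared a base. The positions are chr11:32283522-32283671 for Hba-a1, chr7:103827929-103828078 for Hbb-bs, chrX:150547267-150547416 for Alas2, chr3:90668921-90669070 for S100a8 and chr3:90695722-90695871 for S100a9.
Hba-a1: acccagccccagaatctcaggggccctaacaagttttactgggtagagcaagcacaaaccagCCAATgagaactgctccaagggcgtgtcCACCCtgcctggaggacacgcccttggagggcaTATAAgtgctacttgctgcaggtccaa
Hbb-bs: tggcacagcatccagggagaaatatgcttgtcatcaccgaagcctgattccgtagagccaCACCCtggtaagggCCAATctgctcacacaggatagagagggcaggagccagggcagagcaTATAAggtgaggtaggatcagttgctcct
Alas2: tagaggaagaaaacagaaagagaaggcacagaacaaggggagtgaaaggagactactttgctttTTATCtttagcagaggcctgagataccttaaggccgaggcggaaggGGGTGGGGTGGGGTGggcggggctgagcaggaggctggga
S100a8: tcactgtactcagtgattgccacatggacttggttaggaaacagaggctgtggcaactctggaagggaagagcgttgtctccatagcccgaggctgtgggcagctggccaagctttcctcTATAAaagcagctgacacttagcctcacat
S100a9: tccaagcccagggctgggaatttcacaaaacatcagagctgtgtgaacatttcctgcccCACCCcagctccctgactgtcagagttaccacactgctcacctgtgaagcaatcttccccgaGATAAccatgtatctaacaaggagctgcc

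The Hba-a2 window is the same as that of Hba-a1 at a shift of 3 bases, and Hbb-bt matches Hbb-bs at 107 of 150 bases at a shift of 1. Hba-a1, Hba-a2 and Hbb-bs each held 1 CACCC, 1 CCAAT and 1 TATAA, and Hbb-bt held 3, 3 and 1. Alas2 held 1 GATAA and 3 CACCC, all read on the opposite strand, S100a8 held 1 TATAA, and S100a9 held 1 CACCC and 1 GATAA. Of 27025 promoters of the same length, 36.9% held CACCC, 25.3% CCAAT, 14.7% TATAA and 13.6% GATAA. A match is a description of these letters and was tied to no measurement of binding.

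Levels between genes were compared as CPM per kilobase of merged exons. The beta chain gene Hbb-bs was the most abundant, with a median of 67.9 CPM per kilobase over 20 mice, and it lay above Hba-a1 in 20 of 20. Next came Hba-a1 (23.1), Hba-a2 (20.4) and Hbb-bt (13.3). How reads shared by copies were counted bears on the levels of all the globins. Hba-a1 was above Hba-a2 in 20 of 20 mice, by 1.21-fold at the median, an order that rests on how shared reads were assigned, and Hba-a2 was above Hbb-bt in 18. Alas2 followed at 1.71, below Hbb-bt in 20 of 20 mice. S100a9 (0.476) and S100a8 (0.188) were lowest, with Alas2 above S100a9 in 18 mice and S100a9 above S100a8 in 16. The order is that of the medians. The counts of mice show how often it held within single mice, since every gene varied several-fold between mice.

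The shares of the copies within each globin pair varied little between mice. Hba-a2 made up 40.6% ± 1.65 (SD, n = 20) of the alpha counts, between 36.7% and 43.0%. Hbb-bt made up 15.6% ± 1.76 of the beta counts, between 12.1% and 18.4%. Both shares rest on how reads that match both copies were assigned. If such reads were dropped, the sum of each pair and the ratio of alpha to beta chains are affected as well. Per kilobase, the alpha chains reached 0.506 ± 0.0754 of the beta chains, from 0.327 in untreated female 2 to 0.616 in HK-treated female 3. Over the same mice the 4 globins summed ran from 28.7 CPM in untreated female 2 to 388 CPM in HK-treated male 4, a 13.5-fold range.

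All 7 genes varied more between mice than most genes did. After treatment, sex and batch were fitted, the coefficient of biological variation was 0.409 to 0.434 for the globins, 0.519 for Alas2, 0.751 for S100a8 and 0.835 for S100a9, at percentiles 95.4 to 99.8 of the 13626 genes that passed the filter on low counts. All 7 passed it. The same few mice stood out across genes: HK-treated male 4 was highest for the 4 globins and Alas2, with HK-treated female 4 and untreated female 3 among the next 3, and untreated female 3 was highest for S100a8 and S100a9.

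**Figure D1:**
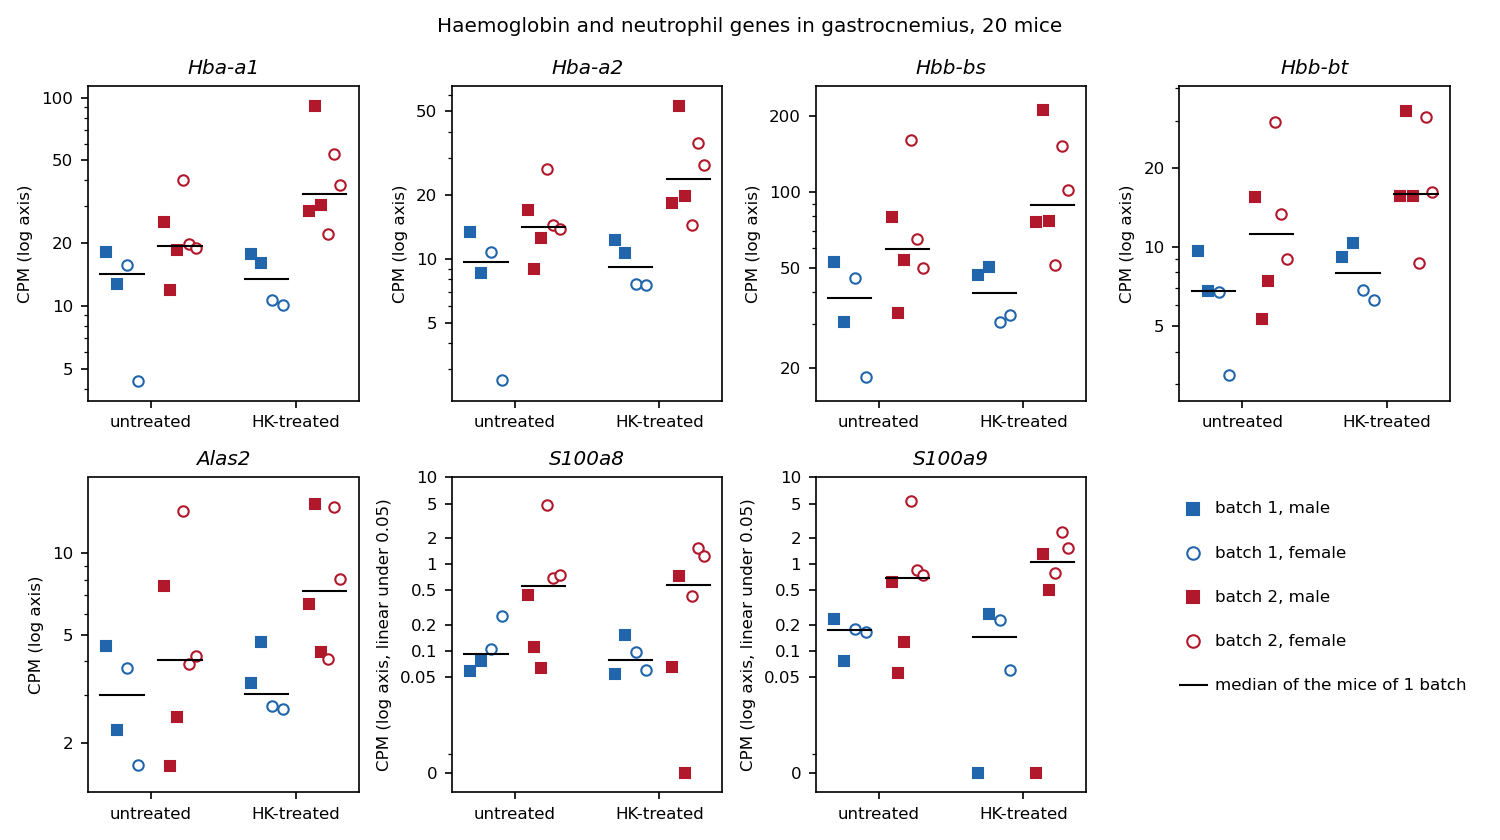
Each panel shows 1 gene, with CPM on a log axis (for S100a8 and S100a9 linear under 0.05, so that 0 can be drawn) and 1 point per mouse, split by treatment along the horizontal axis, by batch in colour and by sex in shape, with lines at the batch medians. Batch 2 medians lie above batch 1 medians in both groups for each gene, and the globin points of HK-treated male 4 (90.9 CPM for Hba-a1) lie far above the other males.

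The study asked what HK does to aged muscle, and for the blood genes no effect passed the test. Hba-a1, an alpha chain, was 10.1, 25.3 and 90.9 CPM (lowest, median and highest) in 10 HK-treated mice and 4.37, 18.3 and 40.1 CPM in 10 untreated mice. The ranges overlapped, and the untreated median was exceeded by 6 of 10 HK-treated mice. The fitted log2 difference, HK-treated minus untreated, was 0.62 ± 0.28 (SE), or 1.53-fold with a 95% interval of 1.02 to 2.31. Its p was 0.0408 before and 0.795 after Benjamini-Hochberg adjustment in edgeR's quasi-likelihood test.

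Hba-a2, the other alpha gene, was 7.56, 16.5 and 52.7 CPM with HK and 2.66, 13.02 and 26.6 CPM without, a log2 difference of 0.56 ± 0.27. Hbb-bs, the main beta chain, was 30.4, 63.7 and 211 CPM against 18.5, 51.3 and 161 CPM, a difference of 0.40 ± 0.29. Hbb-bt, the lesser beta chain, was 6.29, 12.9 and 32.7 CPM against 3.24, 8.21 and 29.9 CPM, a difference of 0.47 ± 0.29. In all 3 the groups overlapped over most of their range, and the adjusted p in edgeR was 0.795, 0.832 and 0.818. Alas2, which starts erythroid haem synthesis, was 2.66, 4.53 and 15.2 CPM with HK and 1.64, 3.84 and 14.4 CPM without, a difference of 0.46 ± 0.35 with an adjusted p of 0.838.

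The calprotectin genes gave negative values with wide errors. S100a8 was 0, 0.124 and 1.53 CPM in HK-treated mice and 0.0584, 0.180 and 4.78 CPM in untreated mice, a log2 difference of -0.52 ± 0.55. S100a9 was 0, 0.385 and 2.34 CPM against 0.0547, 0.205 and 5.33 CPM, a difference of -0.03 ± 0.59, and the adjusted p in edgeR was 0.885 and 0.997. Counts were low: S100a8 had 198 counts and S100a9 had 262 over all mice, untreated female 3 alone held 35.9% of the counts of both genes, and the 3 highest mice held 61.5%. The limit that a count of 0 allows, 3 counts, comes to 0.164 to 0.217 CPM in the 3 libraries with a 0. Without untreated female 3 the differences were 0.35 for S100a8 and 0.78 for S100a9, and neither was called.

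None of the 7 genes was called at an adjusted p under 0.05, against 0% of 13626 genes, and 1 of 7 (Hba-a1) had an unadjusted p under 0.05, against 6.13% of all genes. The lowest adjusted p of any gene in edgeR was 0.356. DESeq2 called 0 of the 7 with 1 at an unadjusted p under 0.05, and limma voom called 0 with 2. The median log2 difference of all genes tested was 0.00. With the copies summed, the alpha pair differed by 0.59 ± 0.28 and the beta pair by 0.41 ± 0.28, with an adjusted p in edgeR of 0.795 and 0.832.

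**Figure D2:**
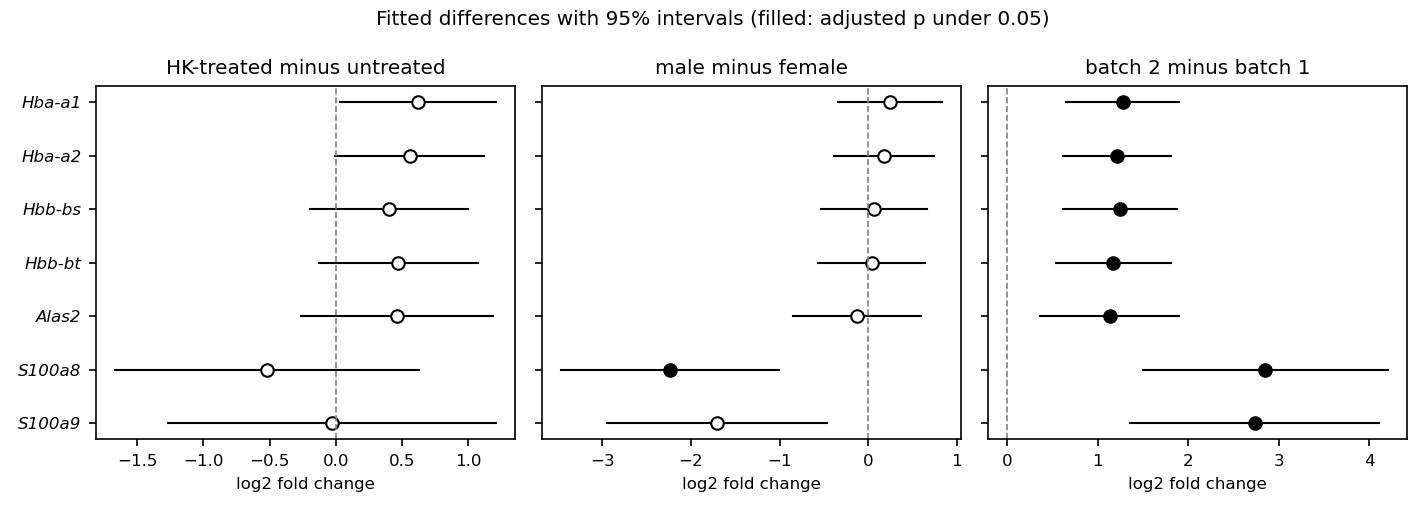
Each panel shows 1 comparison, with the log2 fold change on the horizontal axis, the 7 genes on the vertical axis, and bars for 95% intervals, where filled points have an adjusted p under 0.05. For HK no point is filled, for sex only S100a8 (-2.23) is, and for batch all 7 are.

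The HK values differed in size between subsets. In batch 2 alone (12 mice) the log2 difference was 0.98 for Hba-a1, 0.87 for Hba-a2, 0.64 for Hbb-bs, 0.63 for Hbb-bt and 0.70 for Alas2. In batch 1 alone (8 mice) the same genes gave 0.09, 0.11, 0.09, 0.31 and 0.10. None was called in either batch. In males alone the 5 genes gave 0.76 to 0.93 and in females alone 0.08 to 0.37, again with none called. The difference between the subsets was tested as an interaction: the treatment-by-sex terms were 0.34 to 1.52 and the treatment-by-batch terms -0.48 to 0.83 on the log2 scale. Of the 7 genes 0 were called in either interaction, against 0% of 13800 genes, and 0 had an unadjusted p under 0.05, against 3.5% and 3.01% of all genes. The interval for Hba-a1 by batch ran from -0.34 to 2.00, so a sizeable difference between batches could not be told from none.

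**Figure D3:**
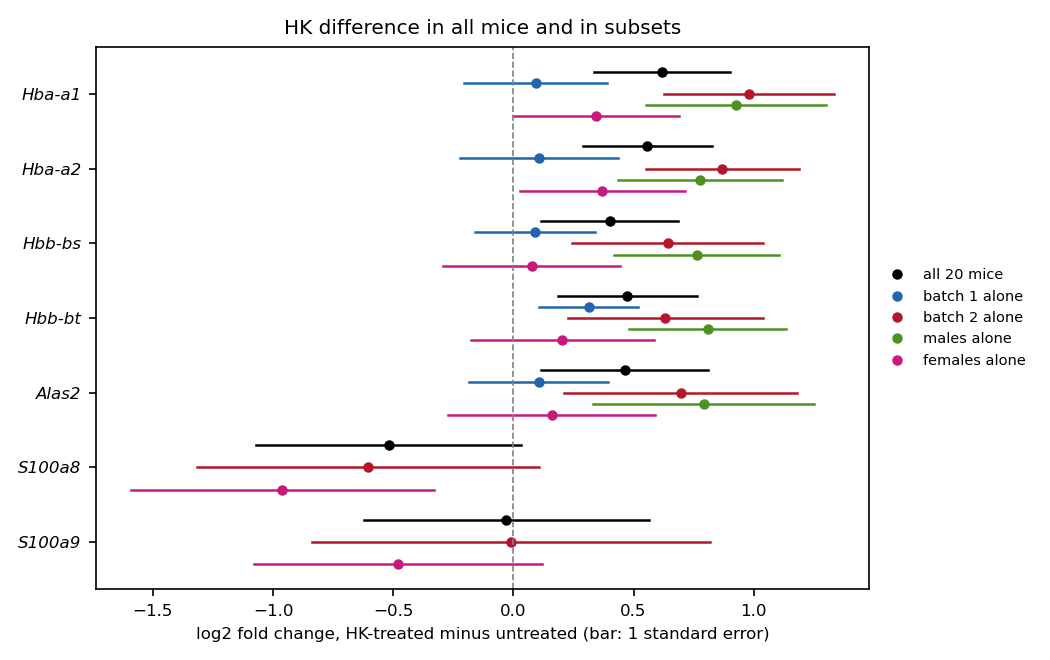
The log2 fold change for HK (horizontal axis, bars of 1 standard error) is drawn for each of the 7 genes in all 20 mice, in each batch and in each sex, where a missing point is a gene that did not pass the filter on low counts in that subset. The globins and Alas2 lie near 0.1 to 0.3 in batch 1 and at 0.63 to 0.98 in batch 2.

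Other genes of red cells and haem gave no call for HK. Of 8 haem synthesis enzymes besides Alas2, 2 lay above 0 and the median difference was -0.01, with Alas1, the housekeeping form of the first enzyme, at -0.11, Ppox at -0.13 and Cpox at 0.10. Of 35 erythroid genes matched, 17 passed the filter, 13 of them lay above 0 and the median was 0.07. Many of the 17 are also muscle genes: Ank1, an ankyrin of both membranes, had a median of 641 CPM and Sptb, a beta spectrin, 429 CPM. Bpgm, which makes the haemoglobin ligand 2,3-bisphosphoglycerate, was at 0.14, Slc25a37, the mitochondrial iron importer mitoferrin, at 0.10, and Xpo7 at 0.08. Of the embryonic and other minor globins, 1 (Hbq1b) had 3 counts in all and the other 6 matched genes had 0.

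The defining erythroid membrane gene Slc4a1, the band 3 anion exchanger, was near the floor. It had 111 counts over all mice, 45 of them in HK-treated female 4, and did not pass the filter on low counts. The erythroid list summed to 1401 to 1636 CPM in HK-treated mice and 1261 to 1649.7 CPM in untreated mice, most of it from genes that muscle also expresses.

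Most genes of the white cells and platelets were low, and few passed the filter on low counts. The immunoglobulin chain Ighm was an exception, with a median of 128 CPM. Of 39 neutrophil genes, 7 passed the filter, 4 of them lay below 0 for HK, and the median was -0.22. Csf3r, the receptor of the granulocyte growth factor G-CSF, was at -0.94 (p = 0.0120, adjusted p = 0.795 in edgeR), Lcn2, an iron-scavenging granule protein, at -0.79 and the integrin Itgam at -0.36. Ly6g, the mouse neutrophil surface marker, had 5 counts over all mice, Camp 6, Ngp 18 and Retnlg 48, with 14 of the Ngp and 14 of the Retnlg counts in untreated female 3. The neutrophil list summed to 3.39 to 22.6 CPM in HK-treated and 3.32 to 36.0 CPM in untreated mice. Of 14 platelet genes 3 passed, with Pf4, platelet factor 4, at -0.38. Ppbp, the platelet basic protein, had 75 counts. Of 20 lymphocyte genes 2 passed, the immunoglobulin chains Ighm at 0.39 and Igkc at 0.90, and of 12 keratinocyte genes 2 did, Krt10 at -0.20 and Trp63 at 0.11. No gene of these lists was called for HK.

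The wider S100 family lay mostly below 0. Of 10 tested S100 and receptor genes 8 did so, with S100a4 at -0.61 (p = 0.0324), S100a11 at -0.56 (p = 0.0083) and S100a6 at -0.24, and 0 were called in edgeR. Of 12 macrophage genes 10 lay below 0 with a median of -0.28, and of 12 endothelial genes 12 did so with a median of -0.23, Eng at -0.35 and Kdr at -0.39, while 0 in either list were called. Macrophage genes summed to 24.4 to 266 CPM in HK-treated and 34.0 to 316 CPM in untreated mice, and endothelial genes to 151 to 447 and 234 to 462 CPM. The part of vessel or macrophage content in the values of the blood genes was not tested. Of 11 tested genes of haem and haemoglobin clearance 5 lay above 0, with a median of -0.04, Cd163, the receptor for haptoglobin-bound haemoglobin, at -0.40 and Hp, haptoglobin itself, at -0.37. The 12 fibre genes split 6 above and 6 below 0, with a median of 0.03.

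S100a8 was lower in males than in females. It was 0, 0.0707 and 0.736 CPM in 10 males (at most 10 counts) and 0.0605, 0.556 and 4.78 CPM in 10 females (at most 78 counts), and 1 of 10 males lay above the female median. The log2 difference, male minus female, was -2.23 ± 0.59 with a 95% interval of -3.47 to -1.001, which is 0.213 of the female level, and the adjusted p in edgeR was 0.0131. S100a8 was the only one of the 7 genes called lower in males, against 7.33% of all genes. Neither S100a8 nor S100a9 passed the filter on low counts in males alone. Both entered the test mainly through the females, so the call is given as a description.

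In batch 2 most females lay above most males. The 6 females gave 0.425 to 4.78 CPM, with 78, 12 and 11 counts in untreated mice and 7, 28 and 21 in HK-treated mice, and the 6 males gave 0 to 0.736 CPM, with 7, 2 and 1 and 1, 10 and 0 counts. In batch 1 the 4 females had 1 to 6 counts and the 4 males 1 to 4, and S100a8 did not pass the filter there. In batch 2 alone the difference was -2.72 (adjusted p = 0.0480 in edgeR). A sex-by-batch term, added after the data were seen, was -2.33 ± 1.49 for S100a8 with a 95% interval of -5.44 to 0.77 (p = 0.132, adjusted p = 0.538 in edgeR), so a sex difference that changed between batches was not shown. Of the 7 genes 0 had an unadjusted p under 0.05 for this term, against 13% of 13800 genes, and 0 were called, against 0%. In untreated mice alone it was -3.03 (adjusted p = 0.0666) and in HK-treated mice alone -1.47 (adjusted p = 0.332), neither called. Without untreated female 3 and HK-treated male 4, a choice made after the data were seen, it was -2.02 (adjusted p = 0.0114).

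S100a9, the partner chain, pointed the same way without a call. It was 0, 0.180 and 1.33 CPM in males and 0.0605, 0.771 and 5.33 CPM in females, a difference of -1.71 ± 0.59 with an adjusted p of 0.0547 in edgeR. It was called with limma voom (-2.10, adjusted p = 0.0285) and when any 1 of 6 mice was left out, untreated male 1, untreated female 4, untreated female 5, HK-treated male 2, HK-treated male 4 or HK-treated female 3 (adjusted p 0.0279 to 0.0483). The erythroid genes did not separate by sex: the globins gave 0.04 to 0.25 and Alas2 -0.12.

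The other neutrophil genes did not share a direction by sex. The 7 that passed the filter, several of them shared with other myeloid cells, gave 0 calls, with 1487 counts in females and 1830 in males. Of these 7, 6 lay above 0 for male minus female, among them Wfdc17 (0.71), Itgam (0.52) and Itgb2 (0.45), and 1 lay below. The 32 that did not pass had 680 counts in females and 396 in males, 20 of them with more counts in females, 5 with more in males and 7 level. Retnlg, a resistin-like protein of neutrophils, had 40 counts in females and 8 in males, the granule protein Ltf (lactoferrin) 26 and 2, the granule proteins Ngp 16 and 2 and Camp 5 and 1, the chemokine receptor Cxcr2 26 and 6, and Ly6g 4 and 1. Without untreated female 3 and HK-treated male 4 the 32 genes had 462 and 351 counts, with 13 higher in females and 8 in males, Retnlg 26 and 5, Ltf 16 and 2, Cxcr2 19 and 4, Ngp 2 and 2, Camp 1 and 1 and Ly6g 2 and 1. These counts are not scaled for depth, which was greater in females in total, and were not tested. Ltf and Cxcr2 were named after their values were seen. The untested neutrophil genes named here are all from the 20 with more counts in females, and none of the 5 with more in males is named. The summed level of the whole list was 3.32 to 34.2 CPM in males and 3.57 to 36.0 CPM in females. Keratinocytes can also make calprotectin. Of the keratin and epidermal genes 2 were tested, with 0 calls, and Krt5 and Krt14 did not pass the filter. Untreated female 1 held 500 of 558 counts of Krt5 and 415 of 443 counts of Krt14, and had 3 counts of S100a8. The part of skin in the S100a8 values was not tested. In other lists, called genes were mostly higher in males, against 8.79% of all genes: Alas1 (0.33) and Alad (0.26) in haem synthesis, Icam4 (1.17), Gypc (0.56) and Mkrn1 (0.22) among erythroid genes, Hmox1 (0.56), the haem-degrading enzyme, with Hmox2, Blvra, Fth1 and Slc48a1 in clearance, S100a1 (0.43), S100a4 (0.81) and S100a16 (0.25) in the S100 family, and Cd68 (1.51) among macrophage genes. Called lower in males were Cd36 (-0.31) and Eng (-0.44). Of the fibre genes Ckm and Tnnt3 were higher and Myh2 lower in males, and 0 of the tested platelet and lymphocyte genes were called.

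The experimental batch gave the clearest separation of the blood genes. All 7 were called higher in batch 2 than in batch 1, against 18.2% of all genes. S100a8 and S100a9 passed the filter on low counts through batch 2, so their calls are given as a description. Hba-a1 was 4.37, 14.2 and 18.0 CPM in 8 mice of batch 1 and 11.9, 26.8 and 90.9 CPM in 12 mice of batch 2, with 11 of 12 above the highest mouse of batch 1. The log2 difference was 1.28 ± 0.30, or 2.42-fold, with an adjusted p of 0.00255 in edgeR.

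The other globins gave much the same size. Hba-a2 was 2.66, 9.64 and 13.4 CPM against 8.97, 17.8 and 52.7 CPM (2.32-fold, adjusted p = 0.00268 in edgeR). Hbb-bs was 18.5, 39.2 and 52.9 CPM against 33.1, 76.2 and 211 CPM (2.37-fold, adjusted p = 0.00333). Hbb-bt was 3.24, 6.82 and 10.3 CPM against 5.31, 15.5 and 32.7 CPM (2.25-fold, adjusted p = 0.00545). The ranges of the batches overlapped for each, with 10, 9 and 8 of 12 batch 2 mice above the highest batch 1 mouse. Alas2 was 1.66, 3.03 and 4.71 CPM against 1.64, 5.42 and 15.2 CPM (2.19-fold, adjusted p = 0.0202), with 6 of 12 above.

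S100a8 and S100a9 were also called higher in batch 2, from a batch 1 level near the floor. Batch 1 mice had 1 to 6 counts of S100a8, 20 in all, and 0 to 7 of S100a9, 29 in all, while batch 2 had 178 and 233. The size of either difference, and its rank among the 7, therefore rests on a few counts, and both genes passed the filter through batch 2. S100a8 was 0.0546, 0.0869 and 0.25 CPM in batch 1 and 0, 0.561 and 4.78 CPM in batch 2, a log2 difference of 2.85 ± 0.65 (adjusted p = 0.00209 in edgeR). S100a9 was 0, 0.172 and 0.264 CPM against 0, 0.771 and 5.33 CPM, a difference of 2.73 ± 0.66 (adjusted p = 0.00313). Both batches held low mice, since HK-treated male 5 had 0 counts of S100a8 and HK-treated male 3 had 0 of S100a9 in batch 2, and 8 and 9 of 12 batch 2 mice lay above the highest of batch 1. Per 1000 globin counts, S100a8 and S100a9 together had 4.64 ± 4.27 counts (SD, n = 8) in batch 1 and 11.1 ± 10.5 (n = 12) in batch 2.

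The batch calls differed between subsets of 10 mice. In females alone all 7 genes were called higher (1.60 to 3.56 on the log2 scale), against 5.6% of all genes, and in HK-treated mice alone 5 were, the globins and Alas2, against 5.1%. In males alone 0 of the 5 genes that passed the filter were called (0.67 to 0.93), against 13.2% of all genes, and 3 had an unadjusted p under 0.05, against 20.4%. In untreated mice alone only S100a8 was called (3.15, adjusted p = 0.0341 in edgeR), against 8.05%. The calls of S100a8 and S100a9 in these subsets are a description too, since both genes passed the filter through batch 2. The sex-by-batch terms of the 7 genes were -2.33 to -0.63 and none was called. Without untreated female 3 and HK-treated male 4, 6 of 7 stayed called and Alas2 did not (0.77, adjusted p = 0.0656). Leaving out any 1 mouse kept all 7. Group and sex were balanced within each batch, so the batch difference stands apart from both, while time, handling and any other step that the batches do not share cannot be told apart.

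Markers of other cell types moved with the batch too. Of all genes tested, 18.2% were called higher in batch 2 and 19.0% lower. Of 39 neutrophil genes 7 passed the filter, and Lcn2 (3.21), Wfdc17, Itgb2, Itgam, Csf3r and Clec4d were called higher in batch 2. Low genes pass that filter more easily through the batch where they are high, so this count is given as a description: Clec4d, a C-type lectin of myeloid cells, had 6 counts in batch 1 and 87 in batch 2 and passed in 15 of 20 fits with 1 mouse left out. The 32 untested genes had 288 counts in batch 1 and 788 in batch 2, and the whole list summed to 3.32 to 6.56 CPM in batch 1 and 7.45 to 36.0 CPM in batch 2. All 12 macrophage genes were called higher with a median of 1.89, led by Cd68 (2.72), and summed to 24.4 to 81.5 against 75.7 to 316 CPM. All 3 tested platelet genes were higher (Pf4 1.11, Itga2b 0.98, Itgb3 1.38). In the endothelial list 5 of 12 were, with a median of 0.30 and Vwf, the von Willebrand factor, at 0.75, beside Eng, Cldn5, Esam and Flt1. No lymphocyte or keratinocyte gene was called. Their part in the batch difference of the blood genes was not tested.

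Few calls came from erythroid and fibre genes, beside the shares of all genes called, 18.2% higher and 19.0% lower. Of 17 erythroid genes 1 was called higher, Tal1 (0.71), a transcription factor of blood and endothelium, and 2 lower, Xpo7 (-0.25) and Bnip3l (-0.22), with a median of 0.01. Many of the 17 are also muscle genes, so they say little about red cells. Slc4a1, which did not pass the filter, had 1 to 6 counts per mouse in batch 1. In batch 2 it had 0 to 10, and 45 in HK-treated female 4. These Slc4a1 counts are not scaled for depth and were not tested. Of 8 haem synthesis genes Urod (0.16) was higher and Cpox (-0.23) and Fech (-0.17) were lower. In the S100 family 7 of 10 were higher, among them S100a10 (1.32), S100a11 (1.06) and S100a6 (0.84), with S100a1, S100a13, S100a16 and Tlr4. In clearance 6 of 11 were higher, among them Hp (1.62), Cd163 (1.34) and Hmox1 (0.68), with Lrp1, Blvrb and Ftl1, and Slc40a1, the iron exporter ferroportin, was lower (-0.35). Of 12 fibre genes 3 were higher (Myh1, Des and Acta1) and 1 lower (Ttn), with a median of 0.05.

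**Figure D4:**
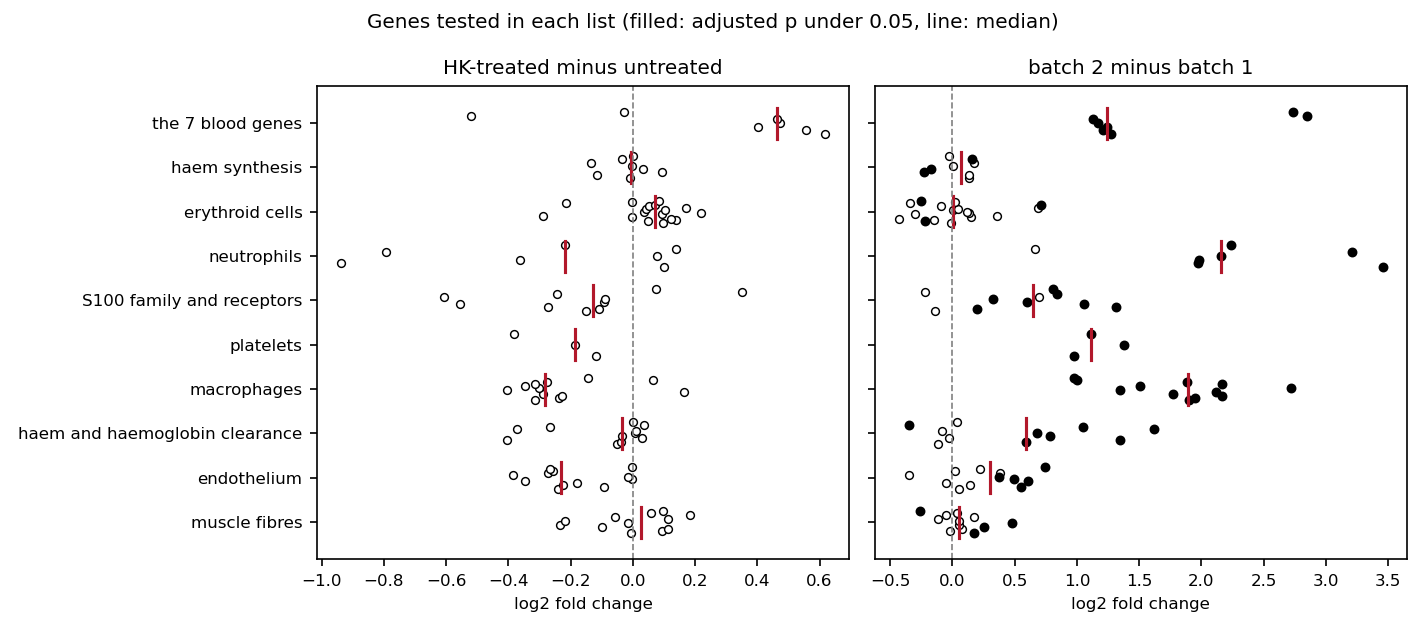
Each point is a tested gene of a list (vertical axis), placed at its log2 fold change (horizontal axis) for HK on the left and batch on the right, with filled points for an adjusted p under 0.05 and red lines at the list medians; lists with under 3 tested genes are left out. No point is filled for HK, and for batch all 12 macrophage genes are filled (median 1.89), where 18.2% of all genes were called higher. The neutrophil row holds 7 of 39 genes, those that passed the filter.

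The blood genes moved together from mouse to mouse. In all, 5 relations between log2 CPM values adjusted for treatment, sex and batch were computed over 20 mice, with permutation tests adjusted over the 5. Summed alpha and summed beta globins gave Pearson's r = 0.95 and Spearman's rho = 0.934, with a permutation p of 1e-05 for both, the smallest that 100000 resamples can give (adjusted p = 2.5e-05). Summed globins and Alas2 gave r = 0.948 and rho = 0.943 (permutation p = 1e-05 for both, adjusted p = 2.5e-05). Without the 2 mice farthest from the median of the first measure, r was 0.949 and 0.922. Within batch 1 (8 mice) r was 0.936 and 0.911 (exact permutation, adjusted p = 0.00434 for both) and rho 0.786 and 0.905 (exact permutation, adjusted p = 0.0698 and 0.0228), so the alpha and beta relation held there by r and not by rho. Within batch 2 (12 mice) r was 0.975 and 0.952 and rho 0.965 and 0.853.

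The link between red cell and neutrophil genes was looser. Summed globins and summed S100a8 and S100a9 gave r = 0.774 (permutation p = 0.0001, adjusted p = 0.0001) and rho = 0.756 (permutation p = 0.0002, adjusted p = 0.000333), and r = 0.637 without untreated female 3 and HK-treated male 4. It did not hold in batch 1, where r was -0.0542 (exact permutation p = 0.905, 8 mice), and in batch 2 it was 0.894 (permutation p = 0.00017, 12 mice). Batch 1 mice, although from the deeper batch, had 1 to 11 counts of the 2 genes together, which limits what r can show there.

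Alas2 and the summed S100 genes gave r = 0.802 (permutation p = 5e-05, adjusted p = 6.25e-05) and rho = 0.719 (permutation p = 0.0005, adjusted p = 0.0005). S100a8 and S100a9 gave r = 0.799 (permutation p = 4e-05, adjusted p = 6.25e-05) and rho = 0.747 (permutation p = 0.00028, adjusted p = 0.00035). Without the 2 farthest mice r was 0.714 and 0.678. In batch 1 the values were 0.317 and 0.417 (exact permutation p = 0.440 and 0.291) and in batch 2 0.849 and 0.799, with rho 0.720 and 0.552 (permutation, adjusted p = 0.0138 and 0.068). Over all mice S100a9 had 1.32 times the counts of S100a8, being above it in 13 mice, equal in 3 and below in 4.

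**Figure D5:**
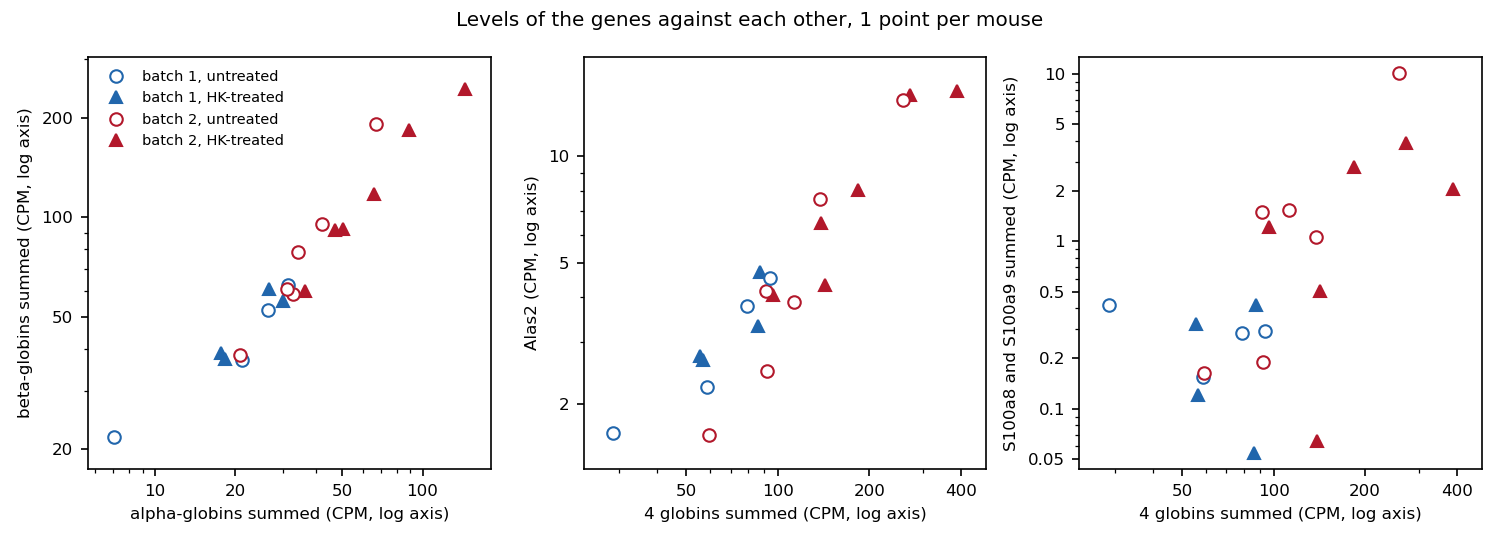
Each point is 1 mouse, with CPM on both log axes, colour for batch and shape for treatment: summed beta against summed alpha globins, Alas2 against summed globins, and summed S100a8 and S100a9 against summed globins. The first 2 panels form narrow bands through both batches, while in the third the batch 1 mice lie below 0.5 CPM with no slope.

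Among the 13626 genes tested, Alas2 had the highest r with the summed globins after the globins themselves (0.948), and S100a9 (0.781) had rank 7 and S100a8 (0.727) rank 12 with the globins counted. The genes outside the 7 with the highest r over 20 mice were Gtpbp1 (0.817), Gm3695 (0.757), Mta1 (0.752), Ubb (0.751), Pitpnb (0.736), Gm13205 (0.724), Flii (0.720), Sox13 (0.712), Pcnt (0.708) and Zfyve1 (0.694). With the summed S100 genes they were Gm13592 (0.804), Ncaph2 (0.747), Sirt2 (0.746), Sympk (0.741), Sec31b (0.741), Gm3695 (0.741), Ube2l6 (0.740), Xpc (0.730), Hsf1 (0.729) and Sdf4 (0.724). None of these genes is on the lists of blood, vessel or muscle genes. These are descriptions over mice that share library and batch, and were not tested.

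With the summed globin level as a further covariate, the HK difference of S100a8 was -1.07 (p = 0.0152, adjusted p = 0.954 in edgeR) and that of S100a9 -0.60 (p = 0.149, adjusted p = 0.954). Untreated female 3 held 35.9% of the counts of both genes. It had 39.2 such counts per 1000 globin counts, against a median of 5.03 over all mice. A value of this fit without that mouse is not given. Neither was called.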

How the data were processed

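The labels gave the treatment, sex, replicate and experimental batch of 20 mice, and the study's methods gave strain, age and length of treatment. The authors isolated RNA with TRIzol, depleted ribosomal RNA, sequenced on a NextSeq 500 (75 cycles) and aligned with STAR 2.6.1c in two-pass mode to GRCm38.p6 with GENCODE M25. The deposited values are raw read counts per gene, whole numbers with no correction. Which counter was run, whether it used strand, and what became of reads matching more than 1 gene were not given in the sources used. Names, positions and exon lengths came from GENCODE M21 (GRCm38), and 55141 of 55401 identifiers matched. RefSeq gave the promoters.

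Counts were tested with edgeR 4.0.16 (R 4.3.3): TMM scaling, filterByExpr, quasi-likelihood test, terms for treatment, sex and batch, plus 1 interaction where stated, and Benjamini-Hochberg adjustment over all genes tested, with calls at an adjusted p under 0.05. The script was tested on simulated data. DESeq2 1.42.0 and limma 3.58.1 were alternatives, beside other scalings, filters, covariates, subsets and each mouse left out. CPM used TMM library sizes, and log2 CPM for relations a prior count of 2. Intervals and count limits cover the spread between mice and counting error respectively. Replicates are separate mice.

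The genes and the 12 marker lists were chosen with earlier results of these data known. Of 200 listed symbols 196 matched, and Ahsp, Fam220a, Hbb-b1 and Hbb-b2 did not. The text names the 7 genes, each list's called genes, otherwise up to 3 with the lowest p for HK, and the defining markers, of which 1 is not reported here. Other list genes were named after their values were seen. The study's young mice were not used here.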

Additional observations from a re-analysis of the deposited data

Results flagged for a closer look

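Within each gene, 5 sets of mice (HK-treated, untreated, males, females and batch 1) were searched for 1 mouse far from the rest by Dixon's test, 35 sets in all. In 13 of them 1 mouse stood apart. The test's chance rate of about 1 in 20 assumes normal values from a single population. CPM is skewed and the sets by group and sex pool both batches, so that rate is no yardstick here. The sets share mice and the genes move together, so the 13 are not independent, and they come from 2 mice.

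HK-treated male 4 stood apart among the 10 males. It had 90.9 CPM of Hba-a1 (next male 30.6), 52.7 CPM of Hba-a2 (next 20.0), 211 CPM of Hbb-bs (next 79.7), 32.7 CPM of Hbb-bt (next 15.6), 15.2 CPM of Alas2 (next 7.59) and 1.33 CPM of S100a9 (next 0.622).

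Untreated female 3 stood apart among the 10 untreated mice for Hbb-bs (161 CPM, next 79.7), Hbb-bt (29.9 CPM, next 15.5), Alas2 (14.4 CPM, next 7.59), S100a8 (4.78 CPM, next 0.752) and S100a9 (5.33 CPM, next 0.860). Among the 10 females it stood apart for S100a8 (next 1.53 CPM) and S100a9 (next 2.34 CPM). The same mouse held 14 of 18 counts of Ngp and 19 of 75 counts of Ppbp. The cause was not tested.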

How the results depend on the processing

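With DESeq2 scaling, copies summed or globins left out of library sizes, the number of the 7 genes called did not change for HK (0), sex (1) or batch (7). With no filter on low counts the numbers were 5 for HK (of 502 genes called), 3 for sex, and 1 and 2 for the interactions with sex and batch. That fit had an infinite prior degree of freedom (4.26 with the filter), so the spread of each gene itself was not used. A filter of at least 5 counts, chosen after the data were seen, gave 0, 1 and 7 (prior degrees of freedom 6.48). Sex gave 2 calls with limma voom and 0 in batch 1, in untreated mice and in HK-treated mice alone. Batch gave 0 in males alone and 1 in untreated mice alone. Relations held by r in 2 of 5 pairs in batch 1, where r of globins and S100 genes was -0.0542, and by rho in 1 of 5 there and 4 of 5 in batch 2. A sex-by-batch term, chosen after the data were seen, gave 0 calls.

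Leaving out each mouse in turn gave 0 to 0 calls for HK, 1 to 2 for sex and 7 to 7 for batch. For HK, S100a8 then ran from -0.79 to 0.35, S100a9 from -0.28 to 0.78, Lcn2 from -1.04 to 0.15 and Trp63 from -0.013 to 0.16. For sex, Hba-a1 ran from -0.017 to 0.38, Hba-a2 from -0.039 to 0.30, Hbb-bs from -0.15 to 0.25, Hbb-bt from -0.11 to 0.24 and Alas2 from -0.34 to 0.10. The treatment-by-sex term of Hba-a2 ran from -0.029 to 0.65, and the treatment-by-batch terms from -1.04 to 0.75 for S100a8 and -0.58 to 1.06 for S100a9.

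Other signs turned without a call. For HK, without untreated female 3 and HK-treated male 4 (chosen after the data were seen), S100a8 was 0.11, S100a9 0.55, Itga2b 0.063 and Lcn2 0.24. Hp was 0.064 in batch 2 and 0.36 in males, Krt10 0.17 and 0.033, Itgam 0.18 and S100a4 0.034 in batch 1, and Trp63 -0.029 in females. For sex, batch 2 alone gave -0.045 for Hba-a1, -0.13 for Hba-a2, -0.24 for Hbb-bs and -0.34 for Hbb-bt, and untreated mice alone -0.088, -0.056, -0.31 and -0.30. Alas2 was 0.45 in batch 1 and 0.18 in HK-treated mice, and S100a4 -0.082 in batch 1. DESeq2 gave 0.19 for the treatment-by-batch term of S100a9. The causes were not tested.

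Mice with the same number did not deviate together (correlations -0.330 to 0.232, 1 of 10 over 0.1, and 0 of 20 mice closest to their own number), so the replicate block, which gave 0 calls for HK, Hba-a1 0.61 and S100a9 0.15, joined mice that share only a number. S100a8 and S100a9 had a median of 3.5 and 7 counts per mouse, which limits their precision. Neither passed the filter in males alone, in batch 1 alone (the deeper batch) or, for HK, without covariates.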
